A study of Homo sapiens with 12 samples.

Results

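The 10 human genes described here encode the core subunits of Polycomb repressive complex 2 (PRC2), namely EZH2, EZH1, SUZ12 and EED, and its accessory subunits JARID2, AEBP2, PHF1, MTF2, PHF19 and EPOP. They were taken by name, 10 of 20037 protein-coding genes in RefSeq (GRCh38.p14, the assembly of hg38), with earlier results of these data known. For each gene, the peaks over its body or within 5 kb on either side were collected from 4 peak lists made by chromatin immunoprecipitation and sequencing (ChIP-seq). All cells were H1, an established human embryonic stem cell line. In knockdown cells, treated with a short hairpin RNA against YTHDF1, the antibody was to YTHDF1. In untreated wild-type cells it was to YTHDF1, to RNF2 or to H2AK119ub, and each condition had input libraries, giving 12 libraries in 6 groups of 2 replicates. The authors merged the replicates of a group into 1 list, so no value below has a spread between replicates and no p-value is given. Read totals were not analysed here, so the depth is unknown, and neither the identity of the cells nor the extent of the knockdown could be checked, since the lists hold no expression values.

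PRC2 is the methyltransferase of histone H3 lysine 27 and works beside PRC1, the complex in which RNF2 places ubiquitin on histone H2A (H2AK119ub). In embryonic stem cells both complexes hold developmental genes silent, largely at CpG-rich start sites. EZH2 or EZH1 is the catalytic subunit, and SUZ12 and EED are needed for its activity. JARID2 and AEBP2 define 1 form of the complex, and the Polycomb-like proteins PHF1, MTF2 and PHF19, with EPOP, belong to the other. YTHDF1 is a protein that reads N6-methyladenosine on RNA.

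Over the PRC2 genes, 9 of 14 RNF2 peaks, 8 of 21 H2AK119ub islands and 3 of 18 wild-type YTHDF1 peaks lay within 1 kb of a start site in the RefSeq promoter table. Of the YTHDF1 peaks, 13 lay more than 10 kb from any such site. These shares of peaks were not counted over all coding genes. By gene, 67.2% of coding genes in that table had RNF2 within 1 kb of a start, 75% H2AK119ub and 21.4% YTHDF1. RNF2 was found over 9 of the 10 genes, all but SUZ12 (exact 95% binomial interval 55.5 to 99.8%), beside 73.5% of all protein-coding genes. H2AK119ub was found over 9, all but MTF2, beside 80%. Wild-type YTHDF1 was found over 9, again all but MTF2, beside 59.2%. The PRC2 genes are longer than most (median 54.1 kb against 24.1 kb for all coding genes), and a longer gene meets more peaks. Coding genes of the same deciles of length had RNF2 in 79.2%, H2AK119ub in 84.4% and YTHDF1 in 67.2% of cases, which all lie within the interval of the PRC2 genes. The YTHDF1 list of knockdown cells had a peak over 0 of the 10 genes, beside 0.963% of all coding genes.

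**Figure D1:**
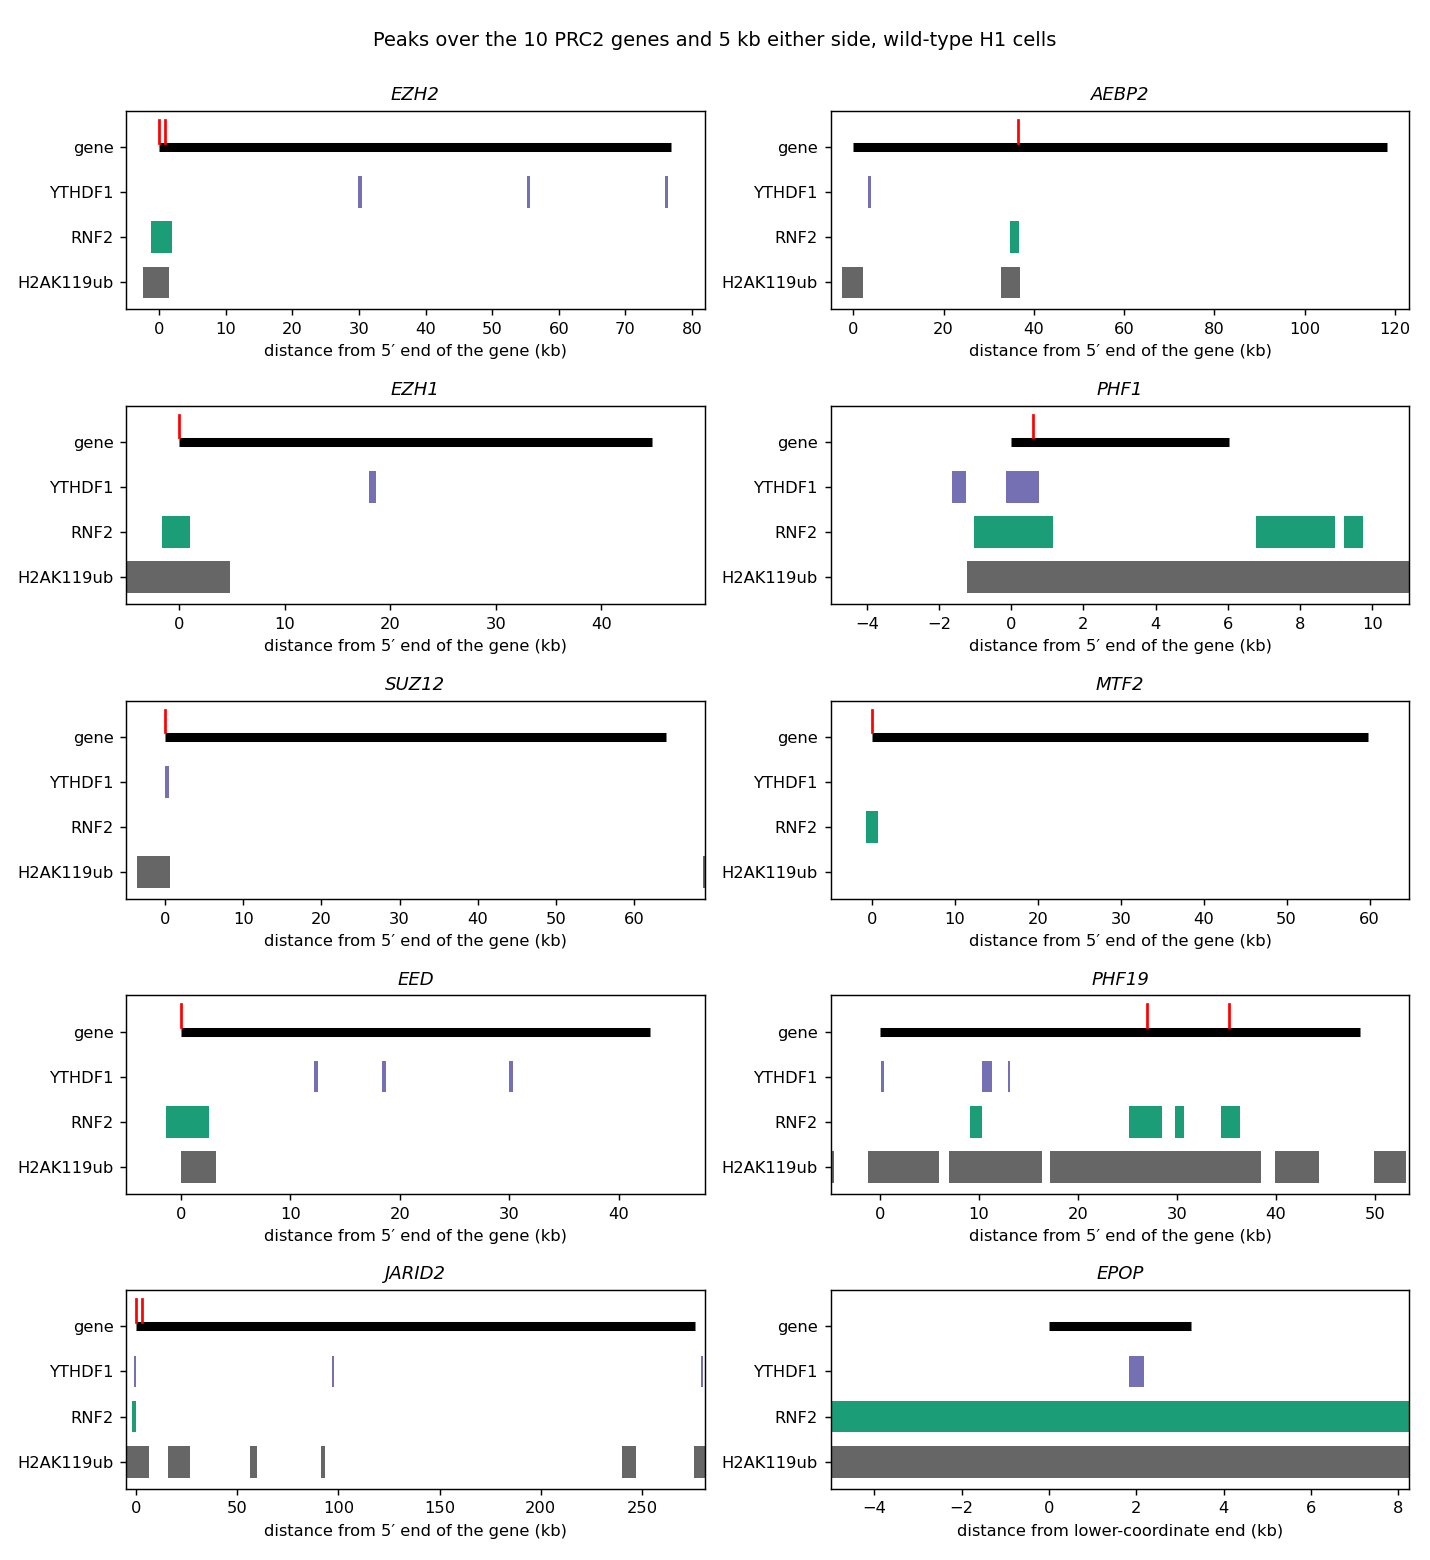
Peaks over each of the 10 PRC2 genes in wild-type H1 cells, by distance from the 5′ end of the gene in kb (EPOP: from its lower-coordinate end); black bars are genes, red ticks start sites, and narrow peaks are widened to stay visible. Of the RNF2 peaks (green) 9 of 14 lie within 1 kb of a start site, H2AK119ub islands (grey) lie both there and elsewhere, and YTHDF1 peaks (purple) lie inside EZH2, EZH1 and EED and at the starts of SUZ12, JARID2 and PHF1; knockdown cells had 0 peaks in these windows.

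All 3 wild-type features were present together over 8 genes, beside 49.7% of coding genes. SUZ12 had YTHDF1 and H2AK119ub without RNF2, a combination held by 4.4% of coding genes, and MTF2 had RNF2 alone, held by 1.55%. Presence over the same gene was not presence at the same place. RNF2 and H2AK119ub overlapped each other (by at least 1 bp) at the 8 genes that had both, beside 69.9% of coding genes. YTHDF1 overlapped RNF2 at 4 genes (JARID2, PHF1, PHF19 and EPOP), beside 26%, and overlapped H2AK119ub at these and SUZ12, 5 in all, beside 36.9%. All 3 coincided at 1 place in the same 4 genes, beside 25.3%, at PHF19 through only 51 bp shared by YTHDF1 and RNF2. At EZH2, EZH1, EED and AEBP2 the YTHDF1 peaks thus lay apart from both PRC1 features.

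**Figure D2:**
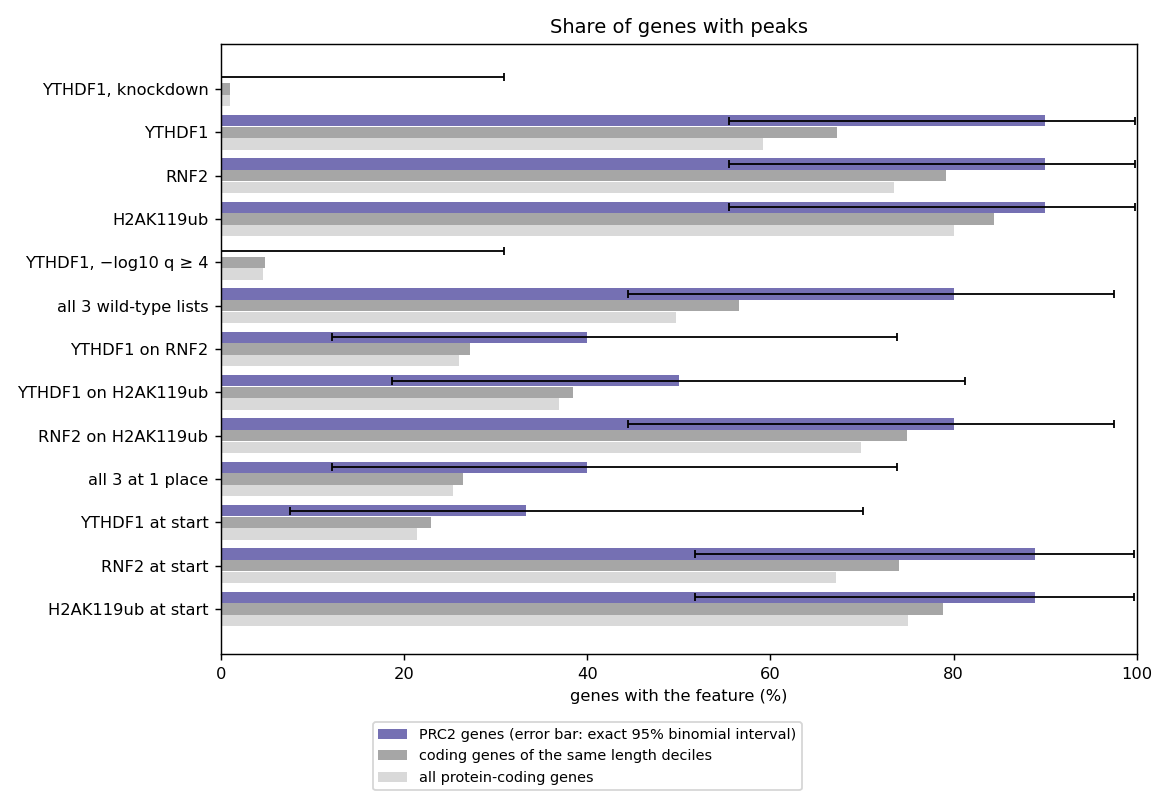
Share of genes, in percent, with each feature: the PRC2 genes (purple, with exact 95% binomial intervals), coding genes of the same length deciles (dark grey) and all protein-coding genes (light grey). Bars for the PRC2 genes end at 90% for YTHDF1, RNF2 and H2AK119ub alike, and the share of all coding genes falls inside every interval.

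The catalytic subunit genes carried both PRC1 features at their starts and YTHDF1 in their bodies. EZH2 (chromosome 7, 148807383 to 148884291, minus strand) has 2 start sites in the RefSeq promoter table, 148884291 and 148883485. An RNF2 peak of 3138 bp at 148882422 to 148885559 covered both, at 5.65-fold enrichment and with its summit at −134 bp from the upstream start (negative values lie upstream). An H2AK119ub island of 4.0 kb (148882801 to 148886800) overlapped 87.9% of it. The EZH2 gene had 3 YTHDF1 peaks, the nearest of them 29095 bp from a start: 2.94-fold at 148853880 to 148854390, 2.88-fold at 148828684 to 148829066 and 2.94-fold at 148807975 to 148808270. The last of these lay 99.0% of the way along the gene, at its 3′ end, and had the highest −log10 q of the 3 (2.87). None of them touched RNF2 or H2AK119ub.

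EZH1 (chromosome 17, 42700275 to 42745040, minus strand) showed the same arrangement with stronger RNF2. Its RNF2 peak at 42743970 to 42746605 had a 10.7-fold enrichment, above the highest RNF2 fold of 88.9% of the 14725 coding genes with such a peak, and a summit at −164 bp from the start site. It lay wholly inside an H2AK119ub island of 12.6 kb (42740201 to 42752800). The single YTHDF1 peak of EZH1, 2.81-fold at 42726390 to 42727006, was 41.4% of the way along the gene. Its −log10 q of 1.58 was near the lowest of the list (1.502). The same pair of fold and q was carried by 6828 peaks, 15.3% of the wild-type YTHDF1 list, so it marks no particular strength. Peaks of JARID2 (15342918 to 15343196) and PHF19 (120903757 to 120904012) carried this pair too.

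The 2 core partners of the enzyme differed from each other. At SUZ12 (chromosome 17, 31937007 to 32001038, plus strand) a YTHDF1 peak of 472 bp at 31937040 to 31937511 began 33 bp after the start site, with 3.23-fold enrichment and a −log10 q of 2.49. It lay wholly inside an H2AK119ub island of 4.2 kb (31933401 to 31937600) that covered the start. No RNF2 peak reached this start or any other part of the gene. The nearest RNF2 peak, 3.29-fold at 32006556 to 32007939, lay 5517 bp beyond the 3′ end, just outside the window, under a second H2AK119ub island (32005801 to 32009000) that is shared with the neighbouring gene LRRC37B. With windows of 10 kb in place of 5 kb this peak brought RNF2 to 10 of 10 genes, beside 75.9% of coding genes. The lack of RNF2 at SUZ12 thus holds for its start and body.

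EED (chromosome 11, 86244753 to 86287615, plus strand) differed from SUZ12 in RNF2 and YTHDF1, while both had an H2AK119ub island within 1 kb of the start. An RNF2 peak of 3.90 kb at 86243446 to 86247348, of 4.90-fold and with its summit at 408 bp, covered the start. The H2AK119ub island (86244801 to 86248000) began 48 bp after the start site, a gap smaller than the 200 bp step of that list, and extended into the gene. The 3 YTHDF1 peaks of EED lay at 86256940 to 86257262 (3.07-fold), 86263093 to 86263492 (2.77-fold) and 86274703 to 86275104 (2.63-fold), with summits 12.4 to 30.2 kb from the start, and touched neither feature.

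JARID2, an accessory subunit that binds H2AK119ub, had a start where YTHDF1 and the PRC1 features coincided. The gene (chromosome 6, 15246069 to 15522042, plus strand) is the longest of the 10, at 276 kb. Its YTHDF1 peak at 15245071 to 15246125, 1055 bp wide, had the highest −log10 q among the PRC2 genes (3.72, with a 3.41-fold enrichment) and ranked above 97.4% of the list by p-value. It ran from the neighbouring noncoding gene JARID2-DT across the upstream start site, 15246069. An RNF2 peak of 3.51-fold (15243824 to 15246076) shared 1006 bp with it, with summits 263 bp apart. This RNF2 peak ended just after the start and was the weakest of the strongest RNF2 peaks per gene, below the median of 5.08-fold among coding genes with one. The downstream start, 15248855, was reached by neither, and an H2AK119ub island of 12.8 kb (15239401 to 15252200) covered both. JARID2 had 5 further H2AK119ub islands, 2000 to 11000 bp wide, with no RNF2 peak under any of them, and the last (15521801 to 15532400) reached into the next gene, DTNBP1. A 2.77-fold YTHDF1 peak at 15525015 to 15525356 lay in that island and in DTNBP1, and a 2.81-fold one at 15342918 to 15343196 lay inside JARID2.

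AEBP2, a zinc-finger subunit found with JARID2, carried PRC1 features inside its annotated gene (chromosome 12, 19404072 to 19522227, plus strand), since its start site in the promoter table, 19440599, lies well inside the annotated 5′ end. An RNF2 peak of 7.83-fold at 19438760 to 19440751 and an H2AK119ub island of 4.2 kb (19436801 to 19441000) covered that start, the RNF2 summit lying at −1136 bp. The annotated 5′ end had a second island (19401601 to 19406200) with a score of 3.03, which ranked above only 1.48% of the list. The YTHDF1 peak, 2.88-fold at 19407391 to 19407748, lay between the 2 islands, its nearer edge 32851 bp upstream of the start site.

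The Polycomb-like genes differed from each other. PHF1 (chromosome 6, 33410412 to 33416439, plus strand) is a short gene, of 6.03 kb, between KIFC1 and CUTA. A 3.09-fold YTHDF1 peak at 33410269 to 33411196 covered its start site (33411014) and lay wholly inside an RNF2 peak of 6.46-fold (33409395 to 33411560), whose summit was 490 bp from that of YTHDF1. Both were inside an H2AK119ub island of 26.4 kb that also covered CUTA and reached into KIFC1. A second YTHDF1 peak, 2.71-fold at 33408782 to 33409170, lay in KIFC1 outside the island, and had a −log10 q of 1.51. A 5.08-fold RNF2 peak in the downstream flank overlapped CUTA in part.

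MTF2 (chromosome 1, 93079283 to 93139076, plus strand) had the fewest features. A single RNF2 peak of 1447 bp at 93078587 to 93080033 covered its start, with 3.68-fold enrichment and a summit 45 bp after the start site. Only 20% of coding genes with an RNF2 peak had a weaker strongest peak. The nearest H2AK119ub island was 38.9 kb from the gene and the nearest YTHDF1 peak 34.0 kb, so neither was missed by the width of the window. It was the only RNF2 peak among the 14 over the PRC2 genes that did not overlap an island.

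PHF19 (chromosome 9, 120855651 to 120904128, minus strand) was covered by H2AK119ub over 78.5% of its window, in 6 islands. The largest, 21.4 kb at 120865601 to 120887000, covered both start sites (120877188 and 120868911). It had the highest score that the list allows, 1000, a cap reached by 3494 of the 43331 islands, including those of PHF1 and EPOP. RNF2 peaks of 4.10-fold (120875685 to 120879025) and 7.16-fold (120867793 to 120869630) each covered 1 start, and another, of 3.07-fold, lay between them. The 3 YTHDF1 peaks lay 13779 to 26569 bp upstream of the upstream start, within the annotated gene, and all were on H2AK119ub islands. One of them, 2.76-fold at 120892857 to 120893874, shared 51 bp with a further RNF2 peak of 3.27-fold (120893824 to 120895052), their summits 1350 bp apart. Another, at 120903757 to 120904012, lay only 0.536% of the way along the annotated gene. This is its annotated 5′ end, where PHF19 overlaps the gene TRAF1, and both start sites of the promoter table lie well inside it. None of the 3 exceeded a −log10 q of 1.63.

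EPOP, which links PRC2 to Elongin BC, had the highest YTHDF1 and RNF2 folds and the widest H2AK119ub island of the 10 (chromosome 17, 38671703 to 38674957). RNF2 and H2AK119ub each covered 100% of its window. The RNF2 domain of 16.8 kb (38666096 to 38682863) had a 26.5-fold enrichment, above the highest RNF2 fold of 96.4% of coding genes with a peak, and its summit lay inside EPOP. The H2AK119ub island of 102.8 kb (38652201 to 38755000) also covered MLLT6, CISD3 and PCGF2, the last of which encodes a PRC1 subunit, and reached into PSMB3. The YTHDF1 peak, at 38673534 to 38673870 inside the gene, had the highest YTHDF1 fold of the PRC2 genes (3.52-fold, −log10 q 3.48), and its summit was 172 bp from that of RNF2. The promoter table holds no EPOP entry, so no end of this gene is named as its start.

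**Figure D3:**
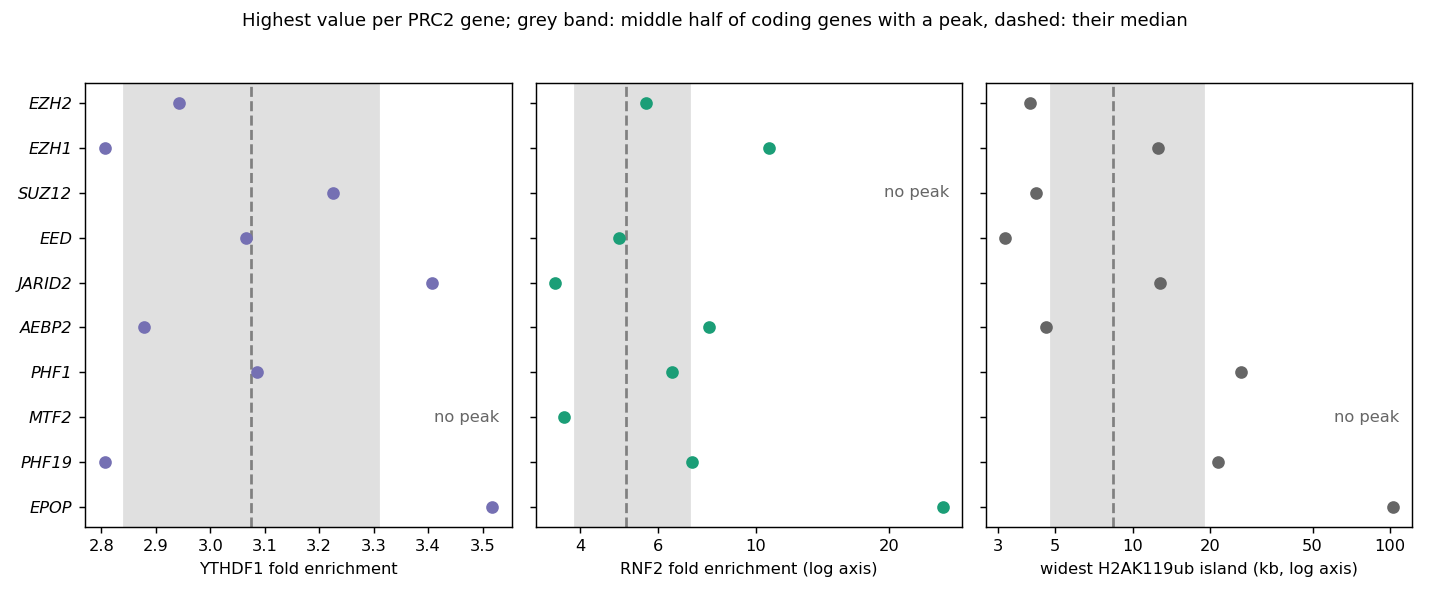
The strongest YTHDF1 peak, the strongest RNF2 peak (fold enrichment) and the widest H2AK119ub island (kb) over each PRC2 gene, against the range between the quartiles (grey band) and the median (dashed) of coding genes that have one, with log axes for RNF2 and H2AK119ub. EPOP is highest in every panel, at 3.52-fold, 26.5-fold and 102.8 kb, and SUZ12 has no RNF2 peak and MTF2 no YTHDF1 peak or island.

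The strongest RNF2 peak of a gene ranged from 3.51-fold at JARID2 to 26.5-fold at EPOP, beside quartiles of 3.90 and 7.09 for coding genes with one. The strongest YTHDF1 peak ranged from 2.81-fold at EZH1 and PHF19 to 3.52-fold at EPOP, beside quartiles of 2.84 and 3.31. Those coding genes that had YTHDF1 peaks had a median of 3.08-fold for their strongest. Among the 9 PRC2 genes with YTHDF1, SUZ12, JARID2, PHF1 and EPOP lay above that median, and EZH2, EZH1, EED, AEBP2 and PHF19 below it, with EED (3.07-fold) and PHF1 (3.09-fold) almost on it. The highest −log10 q per gene split them otherwise: EZH2 (2.87), SUZ12 and EED (2.49 each), JARID2 (3.72) and EPOP (3.48) were above the median of 2.18 for coding genes, PHF1 (2.18) was at it, and EZH1, AEBP2 and PHF19 were below. The widest H2AK119ub island was below the median of 8400 bp for coding genes at EZH2, SUZ12, EED and AEBP2 and above it at EZH1, JARID2, PHF1, PHF19 and EPOP. Fold enrichments are the authors' own values and were compared only within a list.

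Start sites were then examined in the 9 genes that the promoter table holds. RNF2 lay within 1 kb of a start at 8 of them, beside 67.2% of 15843 coding genes, and H2AK119ub at 8, beside 75%. YTHDF1 did so at 3 (SUZ12, JARID2 and PHF1), beside 21.4%. These 3 peaks were 3.09- to 3.41-fold, and all lay on H2AK119ub and 2 on RNF2. Counted by site, RNF2 covered 10 of 12 start sites of the PRC2 genes and 60.6% of those of coding genes, H2AK119ub 10 of 12 and 70%, and YTHDF1 2 of 12 and 10.9%. The RNF2 peaks missed the start of SUZ12 and the downstream start of JARID2. The H2AK119ub islands missed that of MTF2 and, by 48 bp, that of EED. The gap at EED is below the 200 bp step of the islands, so that start may not truly lack the mark.

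**Figure D4:**
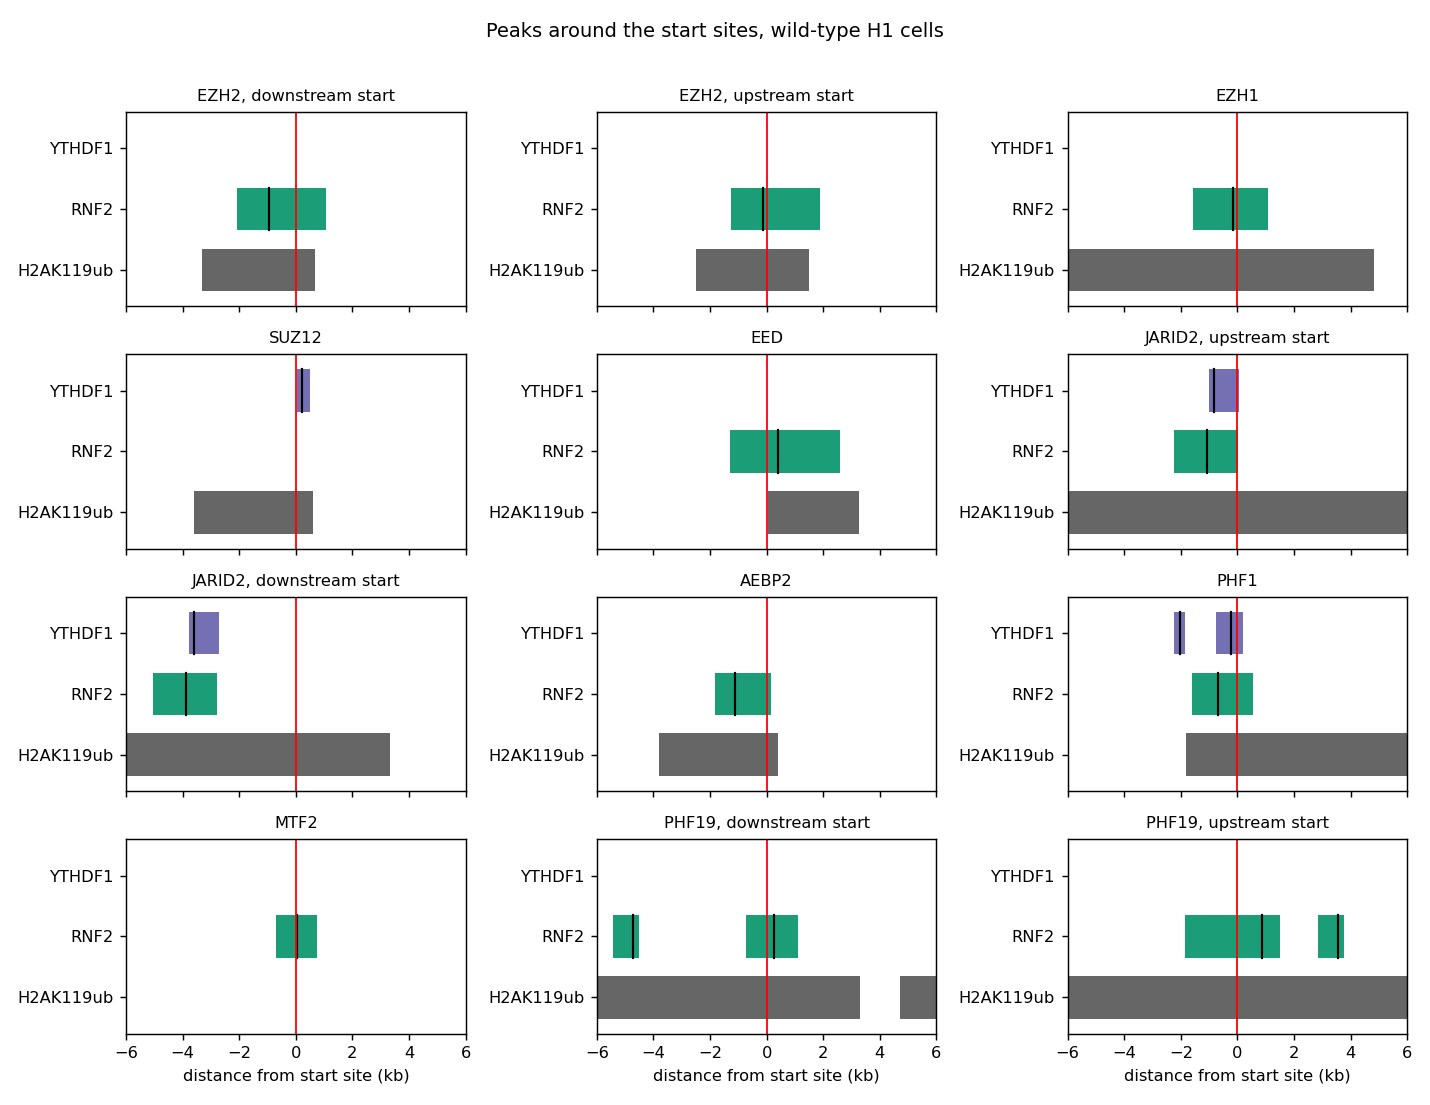
Peaks within 6 kb of each of the 12 start sites (red lines) of 9 PRC2 genes in wild-type H1 cells, by distance from the start in kb, downstream to the right; black lines mark summits. RNF2 (green) covers 10 starts, H2AK119ub (grey) 10 and YTHDF1 (purple) 2, those of PHF1 and the upstream start of JARID2, while the YTHDF1 peak of SUZ12 begins 33 bp after the start.

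The 18 wild-type YTHDF1 peaks over the PRC2 genes were mostly distant from a start site in the promoter table. Of these, 13 lay more than 10 kb from any such site, in 6 genes, and had 2.63- to 3.07-fold enrichment. The windows span 840 kb with 12 start sites, and the share of distant peaks was not counted over all coding genes. Not all of the 13 were far from an annotated 5′ end. The AEBP2 peak lay 3.0% of the way along the annotated gene, and the PHF19 peak at 120903757 to 120904012 only 0.536%. The 3 peaks at starts had higher folds than the 13, though the nearest values, 3.07-fold at EED and 3.09-fold at PHF1, were close. Their −log10 q overlapped, at 2.18 to 3.72 for the 3 at starts and 1.58 to 2.87 for the 13, the distant EZH2 peak exceeding those at the starts of SUZ12 and PHF1. Outside both groups, the EPOP peak, which has no start site in the promoter table, had 3.52-fold, above all 3 at starts. The second PHF1 peak had 2.71-fold. The fold and q of the PHF1 start peak were carried by 2681 peaks of the list (6.02%). Those of the SUZ12 start peak were carried by 1621 (3.64%), and those of the JARID2 start peak by it alone. Among the 13, RNF2 peaks overlapped 1 and H2AK119ub islands 4. Among all 18, RNF2 overlapped 4 (22.2%) and H2AK119ub 8 (44.4%), beside 19.2% and 38.5% of the 25342 YTHDF1 peaks over coding genes. Their density was 2.14 per 100 kb of window, against 1.94 over all coding genes.

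The comparison of knockdown with wild-type cells was limited by the different thresholds of the lists. The knockdown list had 0 peaks over the PRC2 genes and the wild-type list 18. The knockdown list is sparse, with 226 peaks on the main chromosomes against 44498 in the wild-type list. The nearest knockdown peak to any PRC2 gene was 458 kb from MTF2, and that to EZH2 was 7.76 Mb away. Such distances were not compared with those of other genes. Every peak of the knockdown list had a −log10 q of at least 4.01, however, and the highest of the 18 wild-type peaks was 3.72, at JARID2. At a common minimum of 4 both conditions had 0 peaks over the 10 genes. The wild-type list then kept 1062 peaks, with YTHDF1 at 4.6% of coding genes, against 226 peaks and 0.963% in the knockdown. A loss of YTHDF1 peaks at PRC2 genes in the knockdown could therefore not be told apart from the difference in threshold.

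E2F factors, a family that drives cell-cycle genes, are known activators of EZH2 and EED, so their binding words were looked for at the starts. RefSeq (GRCh38.p14) gives 300 bases for each start, from 250 before it to 50 after, in the direction of the gene, with 12 such windows for the 9 genes. The E2F words TTTCCCGC and TTTGGCGC were searched on both strands. One or the other was found in 4 of the 12 windows, those of EZH2 (upstream start), SUZ12, MTF2 and PHF19 (upstream start) but not that of EED, and in 2.79% of the 22199 windows of coding genes. Among windows with at least 60% G+C, which include 11 of the 12, the share for coding genes was 3.4%. The 4 windows are shown with the E2F word in capitals, and in none of them did it overlap another word searched.
EZH2, chr7:148884242-148884541, minus strand: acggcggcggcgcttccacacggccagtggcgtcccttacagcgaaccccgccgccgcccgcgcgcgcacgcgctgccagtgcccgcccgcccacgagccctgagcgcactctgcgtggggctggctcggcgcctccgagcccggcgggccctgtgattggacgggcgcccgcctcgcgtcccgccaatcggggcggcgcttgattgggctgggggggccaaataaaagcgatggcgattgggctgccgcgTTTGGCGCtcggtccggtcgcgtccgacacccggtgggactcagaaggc
SUZ12, chr17:31936757-31937056, plus strand: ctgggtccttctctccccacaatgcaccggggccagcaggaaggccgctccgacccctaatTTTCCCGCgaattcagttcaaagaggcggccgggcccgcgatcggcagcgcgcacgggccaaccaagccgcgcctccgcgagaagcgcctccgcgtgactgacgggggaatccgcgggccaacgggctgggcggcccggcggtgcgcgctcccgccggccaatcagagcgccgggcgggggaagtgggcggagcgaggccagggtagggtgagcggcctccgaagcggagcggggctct
MTF2, chr1:93079033-93079332, plus strand: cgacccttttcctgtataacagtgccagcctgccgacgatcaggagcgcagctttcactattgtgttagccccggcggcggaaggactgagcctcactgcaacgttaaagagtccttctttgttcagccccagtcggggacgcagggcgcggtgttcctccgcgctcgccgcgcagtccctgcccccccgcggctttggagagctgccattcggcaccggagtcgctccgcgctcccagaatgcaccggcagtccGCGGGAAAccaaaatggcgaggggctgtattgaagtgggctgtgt
PHF19, chr9:120877139-120877438, minus strand: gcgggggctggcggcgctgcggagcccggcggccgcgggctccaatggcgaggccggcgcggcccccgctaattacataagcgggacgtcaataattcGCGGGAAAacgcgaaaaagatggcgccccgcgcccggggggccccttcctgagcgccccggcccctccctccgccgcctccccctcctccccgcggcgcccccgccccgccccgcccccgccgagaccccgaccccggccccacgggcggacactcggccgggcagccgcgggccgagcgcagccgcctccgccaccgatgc
Counting the start site as 0, the word lay at 1 to 8 in EZH2, at −189 to −182 in SUZ12, at 5 to 12 in MTF2 and at −152 to −145 in PHF19. These windows carried different marks. RNF2 and H2AK119ub covered all 300 bases of those of EZH2 and PHF19, H2AK119ub alone all 300 of SUZ12, where YTHDF1 covered the last 17, and RNF2 alone all 300 of MTF2. A match is a run of letters and does not show that a factor binds there.

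The 2 windows that lay wholly under a YTHDF1 peak were those of JARID2 (upstream start) and PHF1. They are shown with CG dinucleotides, the usual feature of Polycomb-bound starts, in capitals. H2AK119ub also covered all of both, and RNF2 covered 258 bases of the first and all of the second.
JARID2, chr6:15245819-15246118, plus strand: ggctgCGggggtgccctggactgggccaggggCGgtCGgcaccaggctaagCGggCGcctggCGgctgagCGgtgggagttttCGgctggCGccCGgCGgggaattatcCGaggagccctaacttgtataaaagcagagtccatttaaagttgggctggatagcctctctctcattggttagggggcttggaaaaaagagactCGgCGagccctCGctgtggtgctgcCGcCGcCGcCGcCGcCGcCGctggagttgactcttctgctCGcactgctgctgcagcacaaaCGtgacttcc
PHF1, chr6:33410764-33411063, plus strand: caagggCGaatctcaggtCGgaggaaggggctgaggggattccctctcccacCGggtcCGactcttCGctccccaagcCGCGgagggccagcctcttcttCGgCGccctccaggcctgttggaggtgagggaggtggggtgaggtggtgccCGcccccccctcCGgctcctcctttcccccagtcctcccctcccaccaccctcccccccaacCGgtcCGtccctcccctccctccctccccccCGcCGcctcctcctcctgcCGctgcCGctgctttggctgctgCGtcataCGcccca
The JARID2 window holds 24 CG dinucleotides and the PHF1 window 19, with CpG observed over expected of 0.792 and 0.533. Over the 12 windows the medians were 29 CG, 0.928 observed over expected and 72.3% G+C, against 21, 0.737 and 62.3% for windows of coding genes. The EZH2 windows had 46 and 45 CG and the upstream PHF19 window 48, each above at least 95.5% of windows of coding genes. At the other end EED had 16 CG and 52.3% G+C, and still had an RNF2 peak over its start. The JARID2 start with RNF2 and YTHDF1 was the less CpG-rich of its 2 starts, since the downstream one had 40 CG and neither peak.

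**Figure D5:**
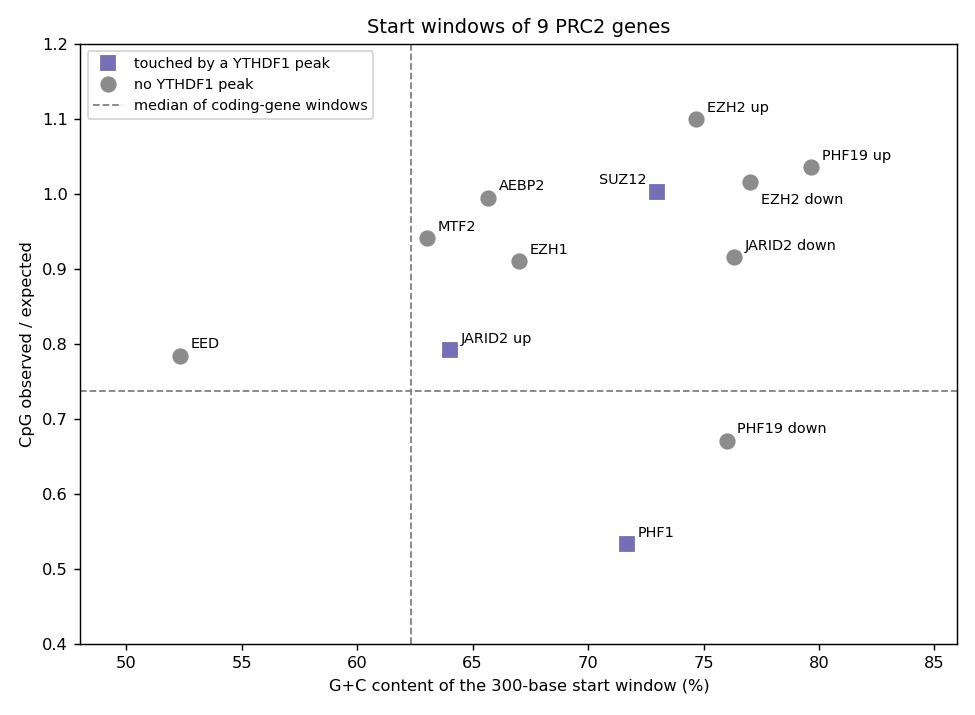
CpG observed over expected against G+C content (%) of the 12 start windows of 9 PRC2 genes; squares are windows touched by a wild-type YTHDF1 peak, circles the others, dashed lines the medians of windows of coding genes. Of the windows 11 lie right of the G+C median of 62.3%, EED being the exception, and PHF1 is lowest in CpG at 0.533.

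For comparison, 6 other words were searched on both strands. GGGCGG, read by SP and KLF factors, was in 10 of 12 windows, beside 56.3% of windows of coding genes and 80.2% of those with at least 60% G+C. CCAAT, read by NFY, was in 6, among them 4 copies at the upstream EZH2 start, beside 34.7%. TATAAA was in the upstream JARID2 window alone, beside 9.47%. GCGCATGC, of NRF1, was in that of EZH1 alone, beside 3.74%, AAGATGGCG, of YY1, in that of PHF19 (upstream start) alone, beside 2.41%, and CCGGAAGT, of ETS factors, in 0 of 12, beside 5.34%. In coding-gene windows with at least 60% G+C the shares were 30.1% for CCAAT, 3.11% for TATAAA and 5.0% for GCGCATGC. AAGATGGCG had 2.94% there and CCGGAAGT 6.33%.

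Other genes of Polycomb and its opponents were set beside the 10 by counts alone. Among all coding genes, 59.2% had YTHDF1, 73.5% RNF2, 80% H2AK119ub and 49.7% all 3, and in 25.3% all 3 coincided at 1 place. Of 5 other PRC2-associated genes (RBBP4, RBBP7, LCOR, LCORL and EZHIP), 3 had YTHDF1, 4 RNF2 and 4 H2AK119ub, and all 3 coincided at 1 place in 1. All 8 PRC1 RING and PCGF genes had RNF2 and H2AK119ub, 6 had YTHDF1, and in 6 all 3 coincided at 1 place, as they did in 4 of the 10 PRC2 genes. Of 8 canonical PRC1 CBX and PHC genes, 7 had YTHDF1, 7 RNF2 and 8 H2AK119ub, and all 3 coincided in 4. PCGF2, in that first PRC1 list, shares the H2AK119ub island of EPOP. Of 3 H3K27 demethylase genes, which undo the work of PRC2, 1 had YTHDF1, 1 RNF2 and 2 H2AK119ub, and all 3 coincided in 1. All 6 H3K4 methyltransferase genes had all 3 features, which coincided at 1 place in 5 of them. At the common minimum for YTHDF1, a peak was kept by 0 of the 10 PRC2 genes, 0 of the 5 other PRC2-associated genes, 0 of the 8 RING and PCGF genes, 1 of the 8 CBX and PHC genes, 1 of the 3 demethylase genes and 3 of the 6 H3K4 methyltransferase genes, beside 4.6% of coding genes. The lists are short and differ in gene length (medians from 16.4 to 240 kb), and no difference between them was tested.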

How the data were processed

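ChIP-seq was made of YTHDF1 in knockdown and of YTHDF1, RNF2 and H2AK119ub in wild-type H1 cells, with inputs, 12 libraries in 6 groups named in the titles. The authors merged replicates into 1 BED file a group, per the labels' design text. Per the submitters' processing notes, SICER 1.1, MACS2 2.1.0, Bowtie2 2.2.5, Picard, Trimmomatic 0.35 and SAMtools 1.3.1 served to build the lists on hg38, with roles and settings not given in the sources used here. Deposited with each YTHDF1 and RNF2 peak are its fold over background, −log10 p-value and −log10 q-value, a summit and a score (10 times the −log10 p, capped at 1000). The H2AK119ub list holds a deposited score of unstated scale, and its intervals are multiples of 200 bp once the written end is taken as their last base. Scores were used within a list, ranks by −log10 p or that score. Only a −log10 q minimum of 4 was applied to both YTHDF1 lists. Lists made with different thresholds differ in peak number for that reason too.

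Peaks on the main chromosomes were intersected with RefSeq genes (GRCh38.p14) with 5 kb either side, by at least 1 bp, in Python 3.11.15 with pandas 2.3.3 and SciPy 1.17.1. Overlap code was tested on simulated intervals. Strand and start sites came from the coordinates of the RefSeq promoter table, in which 3024 of 3024 overlapping windows of opposite strands were reverse complements. Shares carry exact (Clopper-Pearson) 95% intervals for counting error only, genes not being replicates. Length deciles split coding genes into 10 equal groups. All 10 genes are named, a neighbour where a peak of theirs reaches it, and 1 result beside PHF1 is not reported here. The genes, lists and words were chosen with earlier results of these data known. No test was run.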

Additional observations from a re-analysis of the deposited data

How the results depend on the processing

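The counts over the PRC2 genes were recomputed with windows with no flank and with 2 or 10 kb, gene ends with 2 kb, the better-scoring 50% of each list, peak midpoints, overlaps of at least 50%, and, chosen after seeing the data, start windows of 500 bp and 2 kb and the better-scoring 50% at starts. Some of these could not move a count, since the RNF2 and knockdown lists already end at a −log10 q of 4 and the knockdown count starts at 0. The counts that moved by more than 1.5 times all concern YTHDF1. With a −log10 q of at least 4, wild-type YTHDF1 was over 0 of the 10 genes in place of 9, with 0 peaks in place of 18. The share of coding genes fell to 4.6% from 59.2%. In the better-scoring 50% of each list, YTHDF1 overlapped RNF2 at 2 genes (PHF1 and EPOP) in place of 4. The share of coding genes fell too, to 13.7% from 26%. Within 2 kb of gene ends YTHDF1 was at 6 genes, beside 29.1% of coding genes, and RNF2 at 7, beside 67.1%. Counted by midpoints, H2AK119ub was at 7, beside 74.6% of coding genes, since the islands at PHF1 and EPOP extend far past them. Depth is unknown, so weak peaks may be present or absent by the depth of a list alone. No paired analysis was possible because the replicates of each group were merged into 1 list.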
